A study of Danio rerio with 14 samples.

Results

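Zebrafish embryos labelled as mttp knockouts were compared with their siblings at 48 and at 24 hours post fertilization (hpf), and the change of the mutant effect between these stages is described here gene by gene. The quantity is a difference of differences: the log2 ratio of mutants to siblings at 48 hpf minus the same ratio at 24 hpf, fitted over all 14 RNA sequencing libraries. It was tested for every gene that passed a filter on low counts, 24424 of the 36109 genes in the table, and 774 of these were called at an adjusted p under 0.05. The libraries came from whole embryos, namely knockouts made with CRISPR/Cas9 at 48 hpf (3 libraries), their untreated siblings at 48 hpf (3), such knockouts at 24 hpf (4) and their siblings at 24 hpf (4). The labels give neither a genotype for the siblings beyond that word nor the mutant allele. They do not say whether replicates came from separate clutches, so p-values set an effect against the spread between these libraries. The batch label of a library equals its stage; stage and batch cannot be told apart, though mutants and siblings of 1 stage have both in common.

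Microsomal triglyceride transfer protein, the product of mttp, works in the endoplasmic reticulum (ER), where it puts lipid on apolipoprotein B. In fish embryos the yolk syncytial layer uses this step to send yolk lipid into the circulation as lipoprotein particles, and liver and intestine take it up later. Between the stages compared here the retina, liver bud and muscle differentiate while the embryo still lives on yolk. RNA came from whole embryos, in which fewer cells of a type and less RNA per cell cannot be told apart.

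Library totals ranged from 29422983 to 46534187 counts. Among 13 lists of cell type markers, 514 of the 569 members in the table passed the filter on low counts. Sibling replicate 3 of 48 hpf stood apart, with the highest total, 23327 genes detected against 25949 to 27305 in the other 13 libraries, and 0.696% of counts from mitochondrially encoded genes. Sibling replicate 2 of 24 hpf had 0.847% of such counts, and the other 12 libraries 1.27% to 1.97%.

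More of the called genes had a higher ratio of mutants to siblings at 48 hpf than a lower one. An effect is called greater here where this log2 ratio was more positive at 48 hpf, which includes falls that became weaker, and smaller where it was more negative. A value in brackets after a gene is this difference in log2 ± SE with its adjusted p, unless another quantity is named. The log2 ratio was greater at 48 hpf for 594 genes (2.43% of all tested) and smaller for 180 (0.737%), so that 76.7% of the called genes (3.17% of all tested) had the greater ratio at the later stage. At least a 2-fold difference in the ratio was seen for 288 and 80 of them. The split moved with the settings, and which part of them moved it was not tested. Scaling by library size only gave 460 greater and 230 smaller (66.7% greater), and DESeq2 870 and 504 (63.3%). Another filter on low counts, with the scaling factors computed again from the genes it kept, gave 522 and 281 (65%). Limma-voom gave 579 and 158 (78.6%). Without sibling replicate 3 of 48 hpf the counts were 1053 greater and 375 smaller. The greater ones numbered 387 and 342 without mutant replicates 3 and 4 of 24 hpf, and the smaller ones 89 and 88 without mutant replicates 1 and 3 and 109 without sibling replicate 2 of 48 hpf. With the replicate number as a block, 873 genes were greater and 310 smaller.

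The called genes took several forms. In 320 the mutants were called higher at 48 hpf and not called at 24 hpf (an effect that appears), and in 92 they were called lower at 48 hpf only. In 133 genes a lower level at 24 hpf, and in 42 a higher level at 24 hpf, was no longer called at 48 hpf (an effect that vanishes). The effect was called in opposite directions at the stages in 48 genes, of which 47 were higher in mutants at 48 hpf and lower at 24 hpf, and 1, rundc3ab, the other way round. A further 44 genes were called in the same direction at both stages with a different size, and 95 were called at neither stage alone. The background at the single stages was 1480 genes called at 48 hpf (6.06%; 1040 higher, 4.26%, and 440 lower, 1.8%) and 934 at 24 hpf (3.82%; 366 higher, 1.5%, and 568 lower, 2.33%). A gene called at 1 stage and not at the other was often not called in the difference: this held for 758 of 1170 genes called only at 48 hpf and for 449 of 624 called only at 24 hpf. Calls with the block were 164 for lower at 48 hpf only, 228 and 73 for vanished falls and rises, and 79 and 4 for the reversals to higher and to lower. Without sibling replicate 3 of 48 hpf the same counts were 149, 340, 94, 87 and 6. Other single libraries also moved them by over 1.5 times: falls called at 48 hpf only numbered 36 to 59 without any mutant replicate or sibling replicate 2 of 48 hpf, vanished falls 55 to 86 without any mutant replicate or sibling replicate 2 or 3 of 24 hpf or mutant replicate 3 of 48 hpf, and reversals to higher 27 to 31 without mutant replicate 1, 2 or 4 or sibling replicate 3 of 24 hpf.

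**Figure D1:**
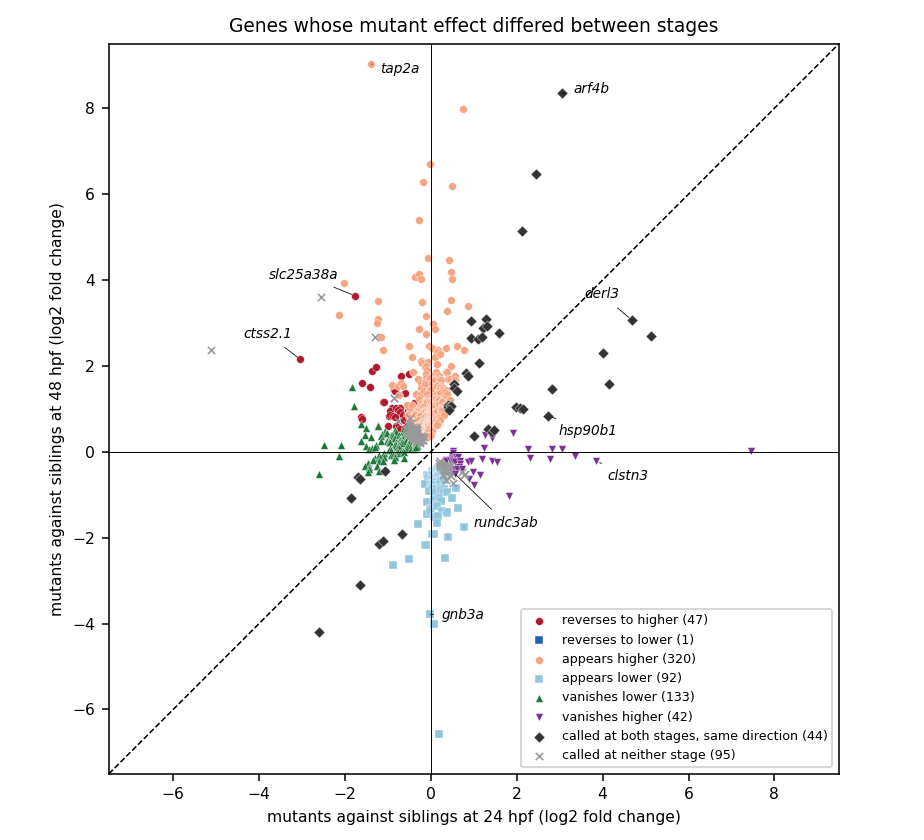
Log2 fold change of mutants against siblings at 48 hpf (vertical axis) and at 24 hpf (horizontal axis) for the 774 genes whose effect differed between stages, 1 point per gene, marked by form with the number of genes in the legend. The dashed line marks equal effects; 594 genes lie above it and 180 below, and the 47 genes that reverse to higher lie in the upper left quadrant, ctss2.1 and slc25a38a among them. The position of tap2a depends on the fit, since its siblings at 48 hpf had no counts.

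Across all genes the estimated effects of the stages were weakly correlated, with no allowance made for the error of the estimates. Over the 24424 genes the effects at 48 and 24 hpf had a Pearson correlation of 0.17 (Spearman 0.13), and over the 17724 genes with an average log2 CPM of at least 1 it was 0.34 (0.17). CPM are counts scaled to a common library size with TMM factors. Over the 2104 genes called at either stage the Pearson correlation was 0.41, and over the 310 called at both it was 0.78. These sets were chosen by the same effects that are correlated, so their values are no measure of agreement between the stages. The effects of the stages share no library, but genes within a library are not independent replicates. The share of genes called in the difference was 0.216% among genes with an average log2 CPM under 0, 1.36% from 0 to 3, 4.38% from 3 to 6 and 7.97% at 6 or more. Greater effects alone made up 0.151%, 0.923%, 3.23% and 6.83%, and smaller ones 0.0647%, 0.44%, 1.15% and 1.14%. The counts of every list below stand beside 2.43% greater and 0.737% smaller over all genes. Lists of abundant genes stand beside the higher shares, and their counts were not matched for level.

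RNA of mttp itself was lower in mutants at both stages. At 48 hpf it measured 11.4, 7.54 and 6.23 CPM in mutants, against 30.3, 19.3 and 38.5 CPM in siblings. At 24 hpf it measured 9.05, 7.90, 10.5 and 11.3 CPM in mutants, against 67.6, 67.3, 79.6 and 70.26 CPM in siblings. Every mutant library lay below every sibling library of its stage. On the log2 scale the effect was -1.81 ± 0.23 at 48 hpf (adjusted p = 8.12e-05) and -2.88 ± 0.21 at 24 hpf (1.57e-07). The difference of 1.07 ± 0.30 (95% interval 0.44 to 1.70) was not called, with an adjusted p of 0.0632. It was called by DESeq2 (adjusted p = 0.0149), with the replicate block (0.0305) and without sibling replicate 3 of 48 hpf (0.0115) or mutant replicate 3 of 48 hpf (0.0403), and had an adjusted p of 0.203 without mutant replicate 1 of 48 hpf.

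Genes whose mutant effect turned round had among their smallest p-values a lysosomal protease and a mitochondrial carrier. The gene ctss2.1 encodes a cathepsin S-type protease of the lysosome. At 48 hpf it measured 16.3, 13.2 and 19.2 CPM in mutants, against 4.21, 4.36 and 2.48 CPM in siblings. At 24 hpf it measured 17.5, 33.8, 39.9 and 45.7 CPM in mutants, against 299, 333, 256 and 242 CPM in siblings. Mutants were above all siblings at the later stage and below all of them at the earlier one, and its level in siblings was far lower at 48 hpf. Its log2 fold change was 2.15 ± 0.29 at 48 hpf against -3.04 ± 0.24 at 24 hpf, a difference of 5.20 ± 0.38, adjusted p = 1.98e-06. On the CPM scale the difference of the means was 12.5 at 48 hpf and -248 at 24 hpf.

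The gene slc25a38a, a carrier that brings glycine into mitochondria for haem synthesis, had 11.08, 7.31 and 5.47 CPM in mutants, against 0.793, 0.845 and 0.321 CPM in siblings at 48 hpf. It had 1.67, 3.62, 2.02 and 2.81 CPM in mutants, against 6.86, 11.0, 7.76 and 8.64 CPM in siblings at 24 hpf. The groups did not overlap at either stage and changed places between them, with a difference of 5.39 ± 0.50, adjusted p = 1.65e-05. Further enzymes of this form were ctsc, which encodes cathepsin C, and smpd2a, a neutral sphingomyelinase. At 48 hpf ctsc had 47.1, 46.3 and 47.1 CPM in mutants, against 24.5, 29.6 and 29.1 CPM in siblings. At 24 hpf it had 106, 95.0, 134 and 119 CPM in mutants, against 366, 409, 342 and 259.7 CPM in siblings. Its groups were separate at both stages, with a difference of 2.36 ± 0.20, adjusted p = 5.22e-06. The gene smpd2a averaged 44.8 ± 2.87 CPM in mutants and 24.9 ± 2.82 CPM in siblings at 48 hpf (SD, n = 3), and 34.1 ± 2.31 CPM in mutants and 67.5 ± 4.91 CPM in siblings at 24 hpf (SD, n = 4); its difference was 1.83 ± 0.14, adjusted p = 1.98e-06. The scaffold gene iqgap2 (difference 1.32 ± 0.10) and ucp2, a mitochondrial carrier of the uncoupling protein family (1.81 ± 0.17), turned round in the same direction.

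The reversal the other way was that of rundc3ab. It had 26.8, 22.9 and 20.7 CPM in mutants, against 32.2, 32.7 and 31.5 CPM in siblings at 48 hpf. It had 6.54, 6.59, 7.51 and 7.55 CPM in mutants, against 5.43, 5.03, 5.24 and 4.32 CPM in siblings at 24 hpf. Mutants were below all siblings at 48 hpf and above all of them at 24 hpf, with a difference of -0.95 ± 0.18, adjusted p = 0.00580. The number of such genes ranged from 0 to 11 over the alternative fits, so this count of 1 depends on the fit.

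**Figure D2:**
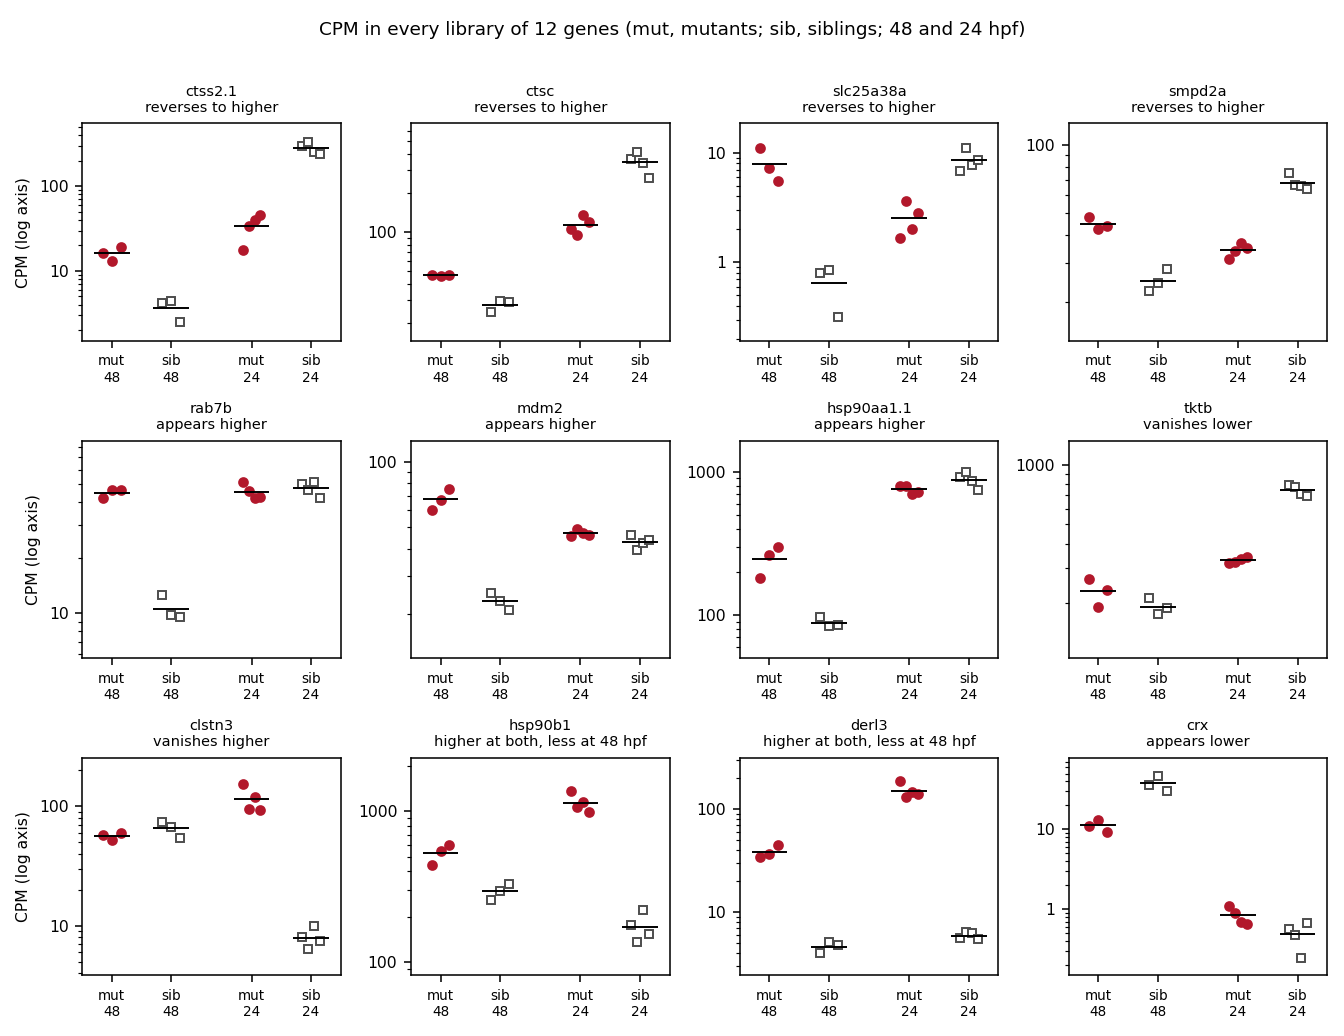
CPM on a log axis in every library for 12 genes, mutants as filled circles and siblings as open squares at 48 hpf (3 libraries each) and 24 hpf (4 each), with the group mean as a bar and the form of the change above each panel. The mutants of ctss2.1, ctsc, slc25a38a and smpd2a are above the siblings at 48 hpf and below them at 24 hpf, whereas rab7b, mdm2 and hsp90aa1.1 differ clearly at 48 hpf and clstn3 and tktb at 24 hpf.

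Lysosomal genes that changed all had a greater effect at 48 hpf. Of 35 tested lysosomal enzymes and membrane proteins 14 had a greater mutant effect at 48 hpf and the other 21 were not called, beside 2.43% of all genes with a greater effect. The median difference was 0.40, against 0.02 over all genes tested. At the single stages 10 members were called higher and 1 lower in mutants at 48 hpf, and 1 higher and 9 lower at 24 hpf. Of the 14 called members 2 reversed, 5 were falls of 24 hpf no longer called at 48 hpf, 6 were rises called at 48 hpf only, and 1 stayed lower. With each library left out in turn the count was 10 to 16.

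Among these, ctsba and ctsh, which encode cathepsins B and H, lost their fall. The gene ctsba averaged 143 ± 12.7 CPM in mutants and 112 ± 14.2 CPM in siblings at 48 hpf (SD, n = 3) and 218 ± 25.9 CPM in mutants and 487 ± 53.5 CPM in siblings at 24 hpf (SD, n = 4), with a difference of 1.52 ± 0.16, adjusted p = 5.64e-05. For ctsh the difference was 1.55 ± 0.19, adjusted p = 1.99e-04, and it averaged 10.21 CPM in mutants and 7.64 CPM in siblings at 48 hpf and 48.3 CPM in mutants and 106 CPM in siblings at 24 hpf. The gene npc2, a carrier of cholesterol in the lysosome, stayed lower in mutants at both stages but less so at 48 hpf (-0.59 ± 0.13, adjusted p = 0.0109) than at 24 hpf (-1.70 ± 0.12). The small GTPase gene rab7b, of late endosome traffic, is not in the list and had the smallest p of all rises called at 48 hpf only. It measured 42.2, 46.4 and 46.5 CPM in mutants, against 12.5, 9.75 and 9.52 CPM in siblings at 48 hpf. It measured 51.8, 46.1, 42.1 and 42.9 CPM in mutants, against 50.6, 46.9, 51.3 and 42.0 CPM in siblings at 24 hpf. The groups overlapped at 24 hpf and lay far apart at 48 hpf, where the mutants kept a level near that of 24 hpf; the difference was 2.15 ± 0.16, adjusted p = 1.98e-06.

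Genes of secreted plasma proteins, which are made by yolk syncytial layer and liver in the embryo, were mixed at 48 hpf and mostly lower at 24 hpf among those called. Of 49 tested, 13 had a greater mutant effect at 48 hpf, 3 a smaller one and 33 were not called, with a median difference of 0.42. At 48 hpf 11 were called higher and 12 lower, against 2 higher and 24 lower at 24 hpf. Fibrinogen chains and the complement gene c3a.1 reversed. The gene fga, for the fibrinogen alpha chain, had 442, 367 and 388 CPM in mutants, against 174, 181 and 231 CPM in siblings at 48 hpf. It had 75.6, 102, 65.8 and 90.8 CPM in mutants, against 166, 118, 141 and 123 CPM in siblings at 24 hpf. No mutant library overlapped with the siblings of its stage, and the difference was 1.74 ± 0.21, adjusted p = 1.78e-04. For fgg, the gamma chain, it was 1.47 ± 0.17, adjusted p = 8.15e-05. The gene c3a.1, for complement component C3, averaged 865 ± 186 CPM in mutants and 425 ± 40.3 CPM in siblings at 48 hpf (SD, n = 3) and 273 ± 15.7 CPM in mutants and 476 ± 51.5 CPM in siblings at 24 hpf (SD, n = 4), a difference of 1.83 ± 0.18, adjusted p = 2.57e-05. For cfb, complement factor B, the means were 161 CPM in mutants and 52.8 CPM in siblings at 48 hpf, where the groups were apart, and 46.0 CPM in mutants and 44.9 CPM in siblings at 24 hpf, where they overlapped (1.58 ± 0.20, adjusted p = 2.11e-04). The 3 members with a smaller effect at 48 hpf, fetub (-1.25), tfa, the iron carrier transferrin (-0.96), and serpina1l, a protease inhibitor (-0.94), named here after their values were seen, were lower in mutants at both stages and more so at 48 hpf. That count was 1 without mutant replicate 3 or sibling replicate 2 of 48 hpf. Near-copies such as the c3a genes may share reads.

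Apolipoprotein genes and genes of lipoprotein assembly, the pathway of mttp itself, were not of 1 kind. Of 30 tested 8 had a greater effect at 48 hpf, 1 a smaller one and 21 were not called (median difference 0.43). With each library left out in turn, 6 to 10 were called greater and 0 to 2 smaller. The gene apom, whose protein carries sphingosine-1-phosphate in lipoproteins, reversed, with 68.1 CPM in mutants and 44.8 CPM in siblings at 48 hpf and 19.7 CPM in mutants and 34.4 CPM in siblings at 24 hpf (1.41 ± 0.17, adjusted p = 1.12e-04). For apoeb, apolipoprotein E, the effect was 0.80 ± 0.12, adjusted p = 2.91e-04, at 48 hpf and -0.33 ± 0.10, adjusted p = 0.0783, at 24 hpf (difference 1.13 ± 0.15, adjusted p = 4.19e-04). The gene apoa4b.2, an apolipoprotein A-IV, averaged 817 ± 126 CPM in mutants and 148 ± 40.6 CPM in siblings at 48 hpf (SD, n = 3) and 316 ± 53.9 CPM in mutants and 207 ± 88.2 CPM in siblings at 24 hpf (SD, n = 4), a difference of 1.85 ± 0.34, adjusted p = 0.00580. A rise called at 48 hpf only was also seen for zgc:85843, which RefSeq lists as tm6sf2a, a gene known in mammals for the lipidation of lipoproteins (2.51 ± 0.45, adjusted p = 0.00470).

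The apolipoprotein B genes differed from each other. The gene apobb.2 had 12.99, 16.1 and 19.4 CPM in mutants, against 131, 126 and 161 CPM in siblings at 48 hpf. It had 35.9, 51.7, 77.7 and 77.9 CPM in mutants, against 176, 168, 229 and 193 CPM in siblings at 24 hpf. Mutants lay below siblings throughout, and the fall was deeper at 48 hpf as a ratio (-1.45 ± 0.30, adjusted p = 0.0128). The adjusted p was 0.0503 without mutant replicate 1 of 48 hpf and 0.0510 with replicates 1 to 3 of each group. The gene apobb.1 was called at neither stage, and its difference of 0.43 ± 0.20 (95% interval 0.00 to 0.86, adjusted p = 0.312) was called only with the replicate block (0.0270). For apoba the effect was -0.73 ± 0.16 at 48 hpf and -0.76 ± 0.14 at 24 hpf, with an interval of the difference from -0.41 to 0.46. For apoa1b the difference was 0.13 ± 0.22, adjusted p = 0.867 (95% interval -0.34 to 0.60). Reads of apobb.1 and apobb.2, which are similar genes, could have been counted for either. The phospholipase-like assembly factor pla2g12b was called greater (0.98 ± 0.24, adjusted p = 0.0303), but not when any of 11 single libraries was left out (adjusted p up to 0.0810).

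Markers of the yolk syncytial layer overlap with these lists. Of 26 tested 9 had a greater effect at 48 hpf and 1 a smaller one, with a median difference of 0.60, the median effect being 0.33 at 48 hpf and -0.43 at 24 hpf. With the replicate block 14 had a greater effect and 1 a smaller one. The smaller one was not called without mutant replicate 2 or 3 or sibling replicate 2 of 48 hpf. The fatty acid binding protein gene fabp2 averaged 66.2 ± 18.1 CPM in mutants and 36.4 ± 8.07 CPM in siblings at 48 hpf (SD, n = 3) and 192 ± 16.9 CPM in mutants and 281 ± 11.8 CPM in siblings at 24 hpf (SD, n = 4), a reversal (1.41 ± 0.23, adjusted p = 0.00197). The gene afp4 reversed as well (1.17 ± 0.20, adjusted p = 0.00259). Among receptors and transporters of lipid, 7 of 37 had a greater effect and 1 a smaller one: the lipoprotein receptor scarb1 reversed (1.71 ± 0.25, adjusted p = 8.43e-04), the cholesterol exporter abca1b rose at 48 hpf only (1.15 ± 0.16, adjusted p = 6.91e-04), and the endocytic receptor lrp1aa lost its rise of 24 hpf (-1.15 ± 0.13, adjusted p = 6.74e-05).

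Transcription factors of this axis were mostly not called. Of 23 Hnf4 and endoderm transcription factors 4 had a greater effect at 48 hpf (2 without mutant replicate 4 of 24 hpf) and 1 a smaller one. For hnf4a, a nuclear receptor of lipoprotein genes, the difference of 0.94 ± 0.38 (95% interval 0.14 to 1.73, adjusted p = 0.219) was not called except with the replicate block (0.0237). Its relative hnf4b averaged 20.1 CPM in mutants and 10.3 CPM in siblings at 48 hpf and 19.5 CPM in mutants and 20.5 CPM in siblings at 24 hpf (1.03 ± 0.23, adjusted p = 0.0179; 0.0549 without mutant replicate 4 of 24 hpf and 0.0630 without mutant replicate 1 of 48 hpf). The repressor gene nr0b2a was lower in mutants at both stages and less so at 48 hpf (1.01 ± 0.16, adjusted p = 0.00163), and prox1a, a homeobox gene of liver and lens, was lower at 48 hpf only (-1.09 ± 0.14, adjusted p = 2.57e-04). The lipid regulator creb3l3a was higher at both stages with no called difference (0.20 ± 0.22, adjusted p = 0.758; 95% interval -0.27 to 0.67).

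Several genes of antigen presentation and immune signalling were higher in mutants at 48 hpf. Of 18 tested genes of the immunoproteasome and antigen presentation 5 had a greater effect at 48 hpf, all of them rises called at that stage only, and the other 13 were not called. The median difference of the list was 1.90. The count was 3 without mutant replicate 2 or sibling replicate 4 of 24 hpf or replicate 1 of either group at 48 hpf. The gene psme1, for a subunit of the PA28 proteasome activator, had 8.29, 7.64 and 3.72 CPM in mutants, against 0.915, 1.07 and 0.321 CPM in siblings at 48 hpf. It had 0.930, 0.233, 0.363 and 0.654 CPM in mutants, against 2.29, 1.36, 0.745 and 0.730 CPM in siblings at 24 hpf. Mutants lay above all siblings at 48 hpf and overlapped with them at 24 hpf (4.34 ± 0.77, adjusted p = 0.00391). Its partner psme2 averaged 5.63 CPM in mutants and 0.875 CPM in siblings at 48 hpf and 0.173 CPM in mutants and 0.397 CPM in siblings at 24 hpf (3.84 ± 0.69, adjusted p = 0.00464; 0.0673 with limma-voom). The peptide transporter genes were low: tap2a had 1.80, 2.02 and 1.92 CPM in mutants, against 0, 0 and 0 CPM in siblings at 48 hpf, so that no fold is given against siblings at 0, and its call was lost with the replicate block (adjusted p = 0.0545) and without sibling replicate 4 of 24 hpf (0.0676). For tap1 the difference was 3.53 ± 0.82, adjusted p = 0.0241, with adjusted p-values of 0.0501 to 0.0690 without mutant replicates 2 or 3 or sibling replicate 3 of 24 hpf or replicate 1 of either group at 48 hpf.

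In the interferon response 5 of 35 tested genes had a greater effect at 48 hpf and the others were not called. The transcription factor irf9 averaged 7.20 ± 0.502 CPM in mutants and 2.91 ± 0.140 CPM in siblings at 48 hpf (SD, n = 3) and 4.92 ± 0.648 CPM in mutants and 4.76 ± 0.301 CPM in siblings at 24 hpf (SD, n = 4), a difference of 1.26 ± 0.25, adjusted p = 0.00835. The guanylate binding protein genes took different forms by their calls: gbp2 was called higher in mutants at 48 hpf only (2.48 ± 0.49, adjusted p = 0.00860) and gbp1 was called lower at 24 hpf only (1.46 ± 0.29, adjusted p = 0.00891). Every mutant library lay below every sibling library at 24 hpf for both genes, though the gbp2 effect of -0.92 ± 0.32 was not called there (adjusted p = 0.131). For irf1b, a transcription factor higher at both stages (3.00 ± 0.69, adjusted p = 0.0235), the adjusted p was 0.146 with limma-voom, and 0.0501 to 0.0682 without mutant replicate 3 or sibling replicate 1 of 24 hpf or replicate 1 of either group at 48 hpf. The ubiquitin-like modifier gene isg15 was higher at both stages with no called difference. It averaged 30.5 ± 8.77 CPM in mutants and 0.0623 ± 0.0610 CPM in siblings at 48 hpf and 32.1 ± 12.1 CPM in mutants and 0.123 ± 0.0862 CPM in siblings at 24 hpf (SD, n = 3 and 4), with a difference of 1.00 ± 0.99 and a 95% interval from -1.09 to 3.08. Of 35 cytokine and Stat3 genes 5 had a greater effect, among them the chemokine cxcl18b (3.06 ± 0.60, adjusted p = 0.00806; 0.108 with limma-voom), the receptor subunit il6st (0.90 ± 0.15, adjusted p = 0.00225) and the feedback inhibitor socs3b (1.29 ± 0.26, adjusted p = 0.0110). The interferon count was 3 without mutant replicate 3 of 24 hpf or replicate 1 of either group at 48 hpf. The cytokine count was 3 without mutant replicate 3 or 4 or sibling replicate 1 or 2 of 24 hpf, or without mutant replicate 1 or 3 or sibling replicate 2 of 48 hpf. In the list of myeloid cells 1 of 31 tested genes was called. Its defining genes mpx, lyz and mpeg1.1 had differences of -0.40, 0.58 and 0.32 that were not called; they were named after their values were seen. The summed level of the list was 1794 to 2054 CPM in mutants and 969 to 1225 CPM in siblings at 48 hpf, and 2060.0 to 2285 CPM in mutants and 2428 to 2886 CPM in siblings at 24 hpf. That sum weighs abundant members most, and the members' median log2 effect was 0.40 at 48 hpf and 0.01 at 24 hpf. The part of this list in the immune results was not tested.

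Several genes with the greatest differences belong to no list. The gene arf4b, for a small GTPase of the Golgi, averaged 44.6 ± 16.01 CPM in mutants and 0.147 ± 0.128 CPM in siblings at 48 hpf (SD, n = 3) and 3.73 ± 0.647 CPM in mutants and 0.443 ± 0.130 CPM in siblings at 24 hpf (SD, n = 4). It was higher in mutants at both stages and more so at 48 hpf (5.29 ± 0.65, adjusted p = 1.79e-04), a difference limma-voom did not call (0.107). The genes cd83, a membrane protein of activated immune cells (4.57 ± 0.74, adjusted p = 0.00193; 0.0660 with limma-voom), tnip2, an inhibitor of NF-kB signalling (4.44 ± 0.80, adjusted p = 0.00480), slc28a1, a nucleoside transporter (4.43 ± 0.55, adjusted p = 1.85e-04), itih3b, a plasma protease inhibitor chain (3.12 ± 0.40, adjusted p = 2.51e-04), abcc6a, a membrane transporter (3.27 ± 0.54, adjusted p = 0.00236), cbln11 (3.68 ± 0.66, adjusted p = 0.00443) and gpr39, a zinc-sensing receptor (2.92 ± 0.41, adjusted p = 5.77e-04), were higher in mutants at 48 hpf only. For vox, a homeobox repressor of early development, the difference of 2.90 ± 0.73, adjusted p = 0.0388, was lost when any of 11 single libraries was left out (up to 0.104).

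Several stress genes of the cytosol were also higher in mutants at 48 hpf. Of 35 heat shock genes 8 had a greater effect, 6 of them as rises called at 48 hpf only, and the others were not called (median difference 0.53). The count was 3 without mutant replicate 3 or 4 of 24 hpf, 4 without mutant replicate 1 or 2 or sibling replicate 1 or 3 of 24 hpf or mutant replicate 1 or 3 of 48 hpf, and 5 without sibling replicate 4 of 24 hpf or sibling replicate 2 of 48 hpf. The chaperone gene hsp90aa1.1, which serves muscle myosin folding in zebrafish, had 181, 265 and 298 CPM in mutants, against 96.6, 83.8 and 85.3 CPM in siblings at 48 hpf. It had 801, 791, 705 and 720.4 CPM in mutants, against 926, 990.0, 866 and 748 CPM in siblings at 24 hpf. At 24 hpf the groups overlapped, at a level above that of either group at 48 hpf (1.71 ± 0.19, adjusted p = 8.15e-05). Its co-chaperone unc45b was also called higher at 48 hpf only (0.97 ± 0.16, adjusted p = 0.00283). A gene of the hsp70 family that RefSeq lists as hspa1b (si:ch211-199o1.2) averaged 50.4 ± 12.8 CPM in mutants and 2.31 ± 0.806 CPM in siblings at 48 hpf (SD, n = 3) and 2.62 ± 0.950 CPM in mutants and 1.953 ± 0.410 CPM in siblings at 24 hpf (SD, n = 4), a difference of 4.03 ± 0.41, adjusted p = 3.15e-05.

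Among Nrf2 and antioxidant genes 7 of 33 had a greater effect at 48 hpf and 1 a smaller one, which was not called when any of 7 single libraries was left out. Thioredoxin, txn, reversed: it had 101, 86.6 and 88.7 CPM in mutants, against 20.7, 20.4 and 40.1 CPM in siblings at 48 hpf. It had 56.3, 65.3, 61.9 and 57.6 CPM in mutants, against 95.6, 121, 92.5 and 81.6 CPM in siblings at 24 hpf. Its groups were separate at both stages (2.46 ± 0.27, adjusted p = 6.11e-05). Haem oxygenase hmox1a (1.54 ± 0.18, adjusted p = 1.34e-04) and gclc, of glutathione synthesis (0.66 ± 0.13, adjusted p = 0.00852), were called higher at 48 hpf only. The secreted superoxide dismutase sod3a, outside the list, was likewise higher at 48 hpf only (1.92 ± 0.19, adjusted p = 2.42e-05). The gene mdm2, for an E3 ubiquitin ligase, averaged 67.4 ± 7.54 CPM in mutants and 23.0 ± 1.99 CPM in siblings at 48 hpf (SD, n = 3) and 47.2 ± 1.597 CPM in mutants and 43.0 ± 2.93 CPM in siblings at 24 hpf (SD, n = 4), a difference of 1.42 ± 0.14, adjusted p = 2.42e-05.

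Several genes of protein folding in the ER moved the other way and were raised less at 48 hpf than at 24 hpf. Of 33 tested ER chaperones and folding enzymes 6 had a smaller effect at 48 hpf and the other 27 were not called, beside 0.737% of all genes with a smaller effect. The list as a whole was mixed, with a median difference of -0.12, 14 positive estimates and 19 negative ones. DESeq2 called 8 members smaller and 1 greater. At 48 hpf 9 members were called higher, against 18 at 24 hpf. The gene hsp90b1, for the ER chaperone Grp94, had 445, 544 and 600.3 CPM in mutants, against 258, 297 and 333 CPM in siblings at 48 hpf. It had 1355, 1066, 1152 and 992 CPM in mutants, against 176, 137, 221 and 155 CPM in siblings at 24 hpf. Every mutant library exceeded every sibling library, by more at 24 hpf, and the effect was 0.84 ± 0.16, adjusted p = 0.00391, at 48 hpf and 2.73 ± 0.15, adjusted p = 7.45e-09, at 24 hpf (difference -1.89 ± 0.22, adjusted p = 9.22e-05). The chaperone genes hyou1 (-1.06 ± 0.17, adjusted p = 0.00156) and dnajc3a (-1.13 ± 0.17, adjusted p = 0.00127) stayed higher with a smaller effect, and the rise of the disulfide isomerase gene pdia4 was no longer called (-1.47 ± 0.19, adjusted p = 2.51e-04). For hspa5, the Hsp70 chaperone of the ER, the difference of -0.55 ± 0.15 was not called (adjusted p = 0.0616), but it was called with the block (0.0275), RLE size factors (0.0440), library size only (0.0258) and DESeq2 (0.00555), and without mutant replicate 2 (0.0360) or sibling replicate 3 (0.0328) of 24 hpf.

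In ER-associated degradation, which removes misfolded proteins, 5 of 28 members had a smaller effect at 48 hpf and the others were not called. The median difference of 0.06 turned to -0.02 with library size only. The gene derl3, of the channel that pulls proteins out of the ER, had 34.2, 36.6 and 45.2 CPM in mutants, against 4.03, 5.07 and 4.73 CPM in siblings at 48 hpf. It had 189.9, 131, 146 and 139 CPM in mutants, against 5.53, 6.44, 6.17 and 5.41 CPM in siblings at 24 hpf. Mutants were above siblings throughout, and the difference was -1.61 ± 0.20, adjusted p = 1.78e-04. Its partners sel1l (-0.97 ± 0.15, adjusted p = 0.00135), os9 (-1.11 ± 0.17, adjusted p = 0.00131) and edem1 (-0.79 ± 0.12, adjusted p = 0.00157) had smaller effects as well. Of 24 sensors and transcription factors of the unfolded protein response 3 had a greater effect (12.5%, beside 2.43% of all genes) and the others were not called. The count was 6 with the block, 5 without sibling replicate 3 of 48 hpf and 1 without each of 9 other libraries. It was also 1 with RLE size factors and 1 with library size only. Among them ddit3, a transcription factor of prolonged stress, averaged 118 ± 23.6 CPM in mutants and 19.2 ± 2.43 CPM in siblings at 48 hpf (SD, n = 3) and 36.9 ± 3.21 CPM in mutants and 17.2 ± 3.197 CPM in siblings at 24 hpf (SD, n = 4), a greater rise at 48 hpf (1.52 ± 0.22, adjusted p = 6.33e-04). The calls of creb3l3b and atf4a were lost when any of 10 and any of 12 single libraries was left out, with adjusted p-values up to 0.111 and 0.147.

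Outside the lists, clstn3, a calsyntenin of cell membranes, had the smallest p of all genes in the difference between stages. It had 57.3, 52.5 and 59.09 CPM in mutants, against 73.8, 67.5 and 54.5 CPM in siblings at 48 hpf. It had 152, 94.0, 119 and 93.1 CPM in mutants, against 8.01, 6.38, 9.84 and 7.42 CPM in siblings at 24 hpf. The groups overlapped at 48 hpf and lay far apart at 24 hpf, where the mutants were the higher ones, and the difference was -4.07 ± 0.24, adjusted p = 2.24e-07. Rises of 24 hpf that were no longer called at 48 hpf were also those of tmppe (-2.76 ± 0.29, adjusted p = 4.23e-05), FAM135B (-2.95 ± 0.35, adjusted p = 1.29e-04), chmp2ba, of the ESCRT-III complex (-2.21 ± 0.38, adjusted p = 0.00336), phka1b, of phosphorylase kinase (-2.85 ± 0.53, adjusted p = 0.00564), and dennd4b, a Rab exchange factor (-1.66 ± 0.23, adjusted p = 4.42e-04). For ush1c, which encodes a scaffold protein of sensory hair cells, the rise stayed but was smaller (-2.57 ± 0.53, adjusted p = 0.0113; 0.0705 with limma-voom).

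**Figure D3:**
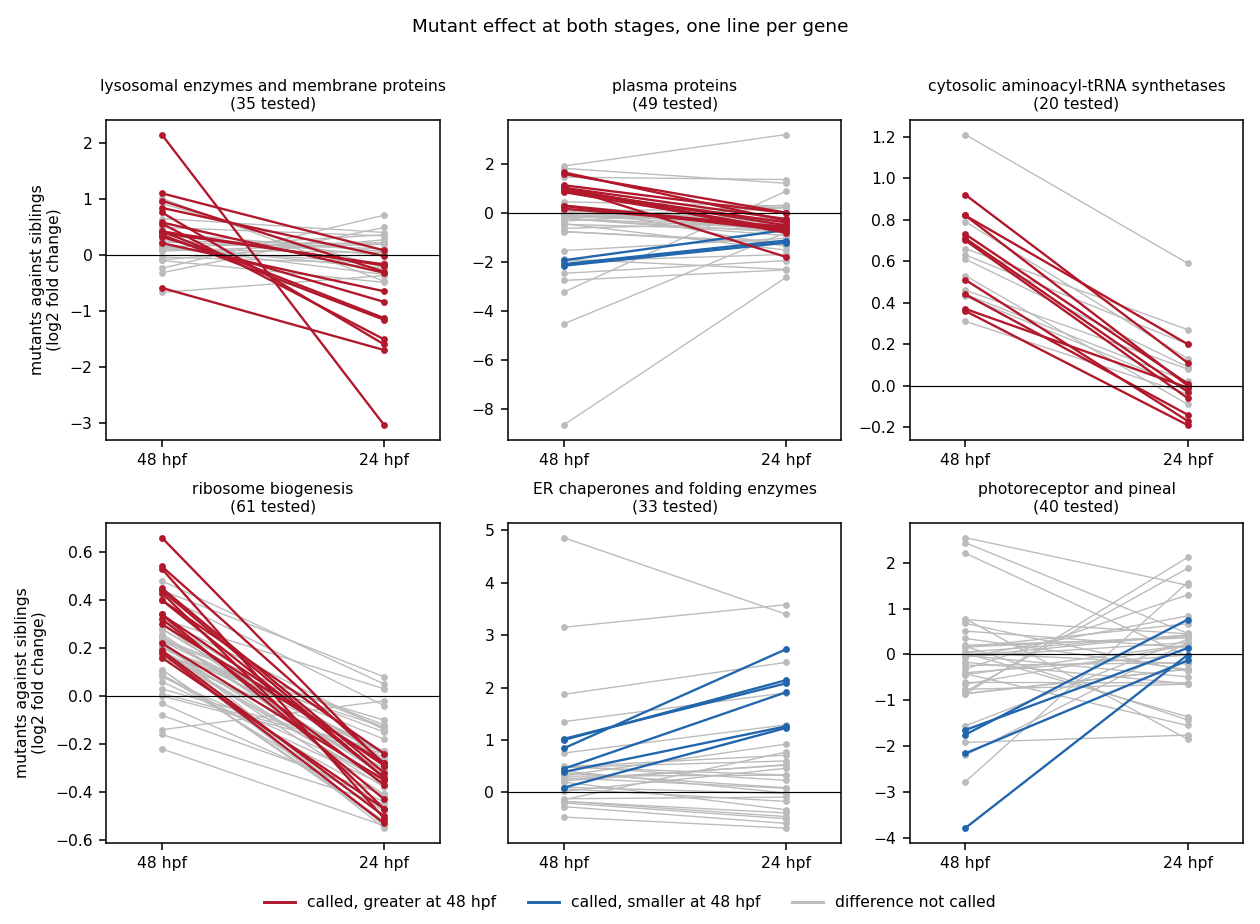
Log2 fold change of mutants against siblings for each tested member of 6 gene lists at 48 hpf (left of each panel) and 24 hpf (right), 1 line per gene, red where the effect was called greater at 48 hpf, blue where called smaller and grey where the difference was not called; vertical scales differ between panels. The 14 called lysosomal genes and the 10 called tRNA synthetases are higher at 48 hpf, and the 6 called ER chaperones are lower there.

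Many genes that supply charged tRNAs and amino acids for protein synthesis had greater effects at 48 hpf. Of 20 cytosolic tRNA synthetases, the enzymes that charge tRNAs, 10 had a greater effect and the other 10 were not called, and all 20 estimates were positive (median 0.60), also with library size only (median 0.52). At 48 hpf 17 were called higher in mutants, and at 24 hpf 1. The count was 4 without mutant replicate 4 of 24 hpf, and 6 without mutant replicate 2 or 3 of 24 hpf or sibling replicate 2 of 48 hpf. The gene iars, for isoleucine, averaged 216 ± 16.3 CPM in mutants and 122 ± 10.4 CPM in siblings at 48 hpf (SD, n = 3) and 247 ± 6.88 CPM in mutants and 248 ± 24.7 CPM in siblings at 24 hpf (SD, n = 4), a difference of 0.83 ± 0.13, adjusted p = 0.00146. For eprs, for glutamate and proline, it was 0.81 ± 0.14, adjusted p = 0.00325, and for mars, for methionine, 0.68 ± 0.13, adjusted p = 0.00848.

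In serine, glycine and mitochondrial folate synthesis 7 of 20 genes had a greater effect and the others were not called. The first enzyme of serine synthesis, phgdh, had 189, 160.3 and 166 CPM in mutants, against 82.7, 97.0 and 94.7 CPM in siblings at 48 hpf. It had 141, 152, 154 and 151 CPM in mutants, against 156, 185, 175 and 168 CPM in siblings at 24 hpf. Mutants lay above all siblings at 48 hpf and slightly below all of them at 24 hpf, where the effect was not called (1.1 ± 0.13, adjusted p = 8.39e-05). The genes psph (0.76 ± 0.14, adjusted p = 0.00497) and shmt1 (0.60 ± 0.12, adjusted p = 0.0107) were called higher at 48 hpf only as well, and the fall of mthfd1b at 24 hpf was no longer called (1.01 ± 0.19, adjusted p = 0.00578). The count was 4 without mutant replicate 2 or 4 of 24 hpf. Of 29 genes of amino acid synthesis and transport under Atf4 3 had a greater effect, including the transporter subunit slc3a2a (1.41 ± 0.26, adjusted p = 0.00497), whose fall at 24 hpf was no longer called, and the neutral amino acid transporter slc1a4 (0.79 ± 0.16, adjusted p = 0.00844).

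Genes that build ribosomes had greater effects at 48 hpf where they were called. Of 61 ribosome biogenesis genes 16 had a greater effect at 48 hpf and the others were not called, and 60 estimates were positive (median 0.55; 0.48 with library size only). At 48 hpf 4 members were called higher, and at 24 hpf 11 were called lower. The count moved with single libraries: it was 4 without mutant replicate 4 of 24 hpf, 9 without mutant replicate 1 or 3 of 24 hpf, 7 without mutant replicate 1 or sibling replicate 2 of 48 hpf, 8 without mutant replicate 3 of 48 hpf and 36 without sibling replicate 3 of 48 hpf, and 33 with the block. The nucleolar gene npm1a reversed, with 158 CPM in mutants and 119.7 CPM in siblings at 48 hpf and 365 CPM in mutants and 461 CPM in siblings at 24 hpf (0.74 ± 0.14, adjusted p = 0.00542), and eif6, which holds ribosomal subunits apart, had 39.3 CPM in mutants and 24.9 CPM in siblings at 48 hpf and 59.4 CPM in mutants and 72.5 CPM in siblings at 24 hpf (0.95 ± 0.13, adjusted p = 6.33e-04). For bop1 the difference was 0.82 ± 0.15, adjusted p = 0.00601, and for rrs1 0.77 ± 0.15, adjusted p = 0.00727. Of 84 ribosomal protein genes 83 had a positive estimate (median 0.30; 0.23 with library size only), but 1 was called, rps29, and it was not called when any of 13 single libraries was left out (adjusted p up to 0.146). Of 44 proteasome subunits 42 were positive (median 0.38, or 0.31 with library size only) and 5 were called greater (11.4%, beside 2.43% of all genes). With the block 11 were called, with RLE size factors 2 and with library size only 1. The count was 19 without sibling replicate 3 of 48 hpf and 1 or 2 without each of 12 other libraries. Of 57 genes of DNA replication and cell division 53 were positive (median 0.31; 0.24 with library size only) and 1 was called, mcm5, which was lost when any of 7 single libraries was left out (up to 0.0789); 6 were called with the block and 15 without sibling replicate 3 of 48 hpf.

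Several lipid synthesis genes were raised more at 48 hpf. Of 29 genes of fatty acid and glycerolipid synthesis 8 had a greater effect at 48 hpf and the others were not called. The transcription factor gene srebf1 had 290.0, 317 and 354 CPM in mutants, against 85.5, 75.2 and 68.7 CPM in siblings at 48 hpf. It had 200.4, 215, 177 and 188 CPM in mutants, against 107, 81.3, 79.6 and 88.5 CPM in siblings at 24 hpf. Mutants exceeded all siblings at both stages, by more at 48 hpf (0.94 ± 0.16, adjusted p = 0.00336). Acetyl-CoA carboxylase, acaca, was called higher at 48 hpf only (0.74 ± 0.15, adjusted p = 0.00941), acss2l reversed (1.64 ± 0.26, adjusted p = 0.00182), and mid1ip1l, which promotes polymerization of that carboxylase, lost its fall (1.12 ± 0.23, adjusted p = 0.0103). The count was 5 without mutant replicate 2 or 4 of 24 hpf, mutant replicate 2 of 48 hpf or sibling replicate 2 of 48 hpf. Of 27 mevalonate and sterol synthesis genes 14 were called higher in mutants at 48 hpf, and 6 higher and 3 lower at 24 hpf. Of these 27 genes 2 were called greater in the difference (7.41%, beside 2.43% of all genes). They were fdps, which reversed (1.13 ± 0.16, adjusted p = 4.90e-04), and cyp51, a demethylase of sterol synthesis (1.16 ± 0.17, adjusted p = 7.49e-04). In this list 5 were called with the block and 7 without sibling replicate 3 of 48 hpf. The rate-limiting reductase hmgcra was higher at both stages with a difference of -0.07 ± 0.45 (95% interval -1.02 to 0.87), and hmgcs1 with a difference of 0.60 ± 0.19, adjusted p = 0.112. For plin2, the coat of lipid droplets, the effect was 2.44 ± 0.33 at 48 hpf and 3.06 ± 0.29 at 24 hpf (95% interval of the difference -1.50 to 0.26), whereas cideb, which helps to enlarge lipid droplets, was called higher at 48 hpf only (1.66 ± 0.31, adjusted p = 0.00591).

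Genes of fuel use changed in both directions. Of 40 fatty acid oxidation and Ppar genes 4 had a greater effect (10%) and 1 a smaller one (2.5%), beside 2.43% and 0.737% of all genes. The greater ones included the acylcarnitine carrier slc25a20, a reversal (0.72 ± 0.13, adjusted p = 0.00424), and acsl1b, which activates fatty acids (0.90 ± 0.17, adjusted p = 0.00580); the count was 2 without mutant replicate 1 or 2 or sibling replicate 3 of 24 hpf, or without any mutant replicate or sibling replicate 2 of 48 hpf. The smaller one was pdk4, a kinase that shuts pyruvate out of mitochondria. It averaged 14.4 ± 2.31 CPM in mutants and 34.4 ± 2.56 CPM in siblings at 48 hpf (SD, n = 3) and 17.7 ± 3.10 CPM in mutants and 16.1 ± 2.04 CPM in siblings at 24 hpf (SD, n = 4), a difference of -1.39 ± 0.21, adjusted p = 0.00129. Of 33 fasting, Foxo and autophagy genes 2 had a greater effect and 2 a smaller one (6.06% each), beside 2.43% and 0.737% of all genes. With each library left out in turn, 2 or 3 were called greater and 0 to 3 smaller. The smaller ones were ulk1a (-0.79, adjusted p = 0.0384) and bcl6aa (-0.76, adjusted p = 0.0486, but 0.0531 with the replicate block). The greater ones were trim63a (0.97 ± 0.16, adjusted p = 0.00180) and pck2, the mitochondrial enzyme of gluconeogenesis. The gene pck2 reversed, with 168 CPM in mutants and 87.7 CPM in siblings at 48 hpf and 139 CPM in mutants and 268 CPM in siblings at 24 hpf (1.89 ± 0.19, adjusted p = 2.66e-05). The gene oxct1b, for the use of ketone bodies and outside the lists, rose at 48 hpf only (1.58 ± 0.14, adjusted p = 7.41e-06). Of 80 nuclear-encoded genes of oxidative phosphorylation edgeR and limma-voom each called 0 in either direction and DESeq2 called 1. With no adjustment, 7 had a greater and 0 a smaller effect at p under 0.05. At 24 hpf alone 15 of them were called lower in mutants. The transketolase gene tktb, of the pentose phosphate pathway, had 266, 191 and 232 CPM in mutants, against 213, 176 and 189 CPM in siblings at 48 hpf. It had 319, 322, 334 and 344 CPM in mutants, against 792, 768, 708 and 697 CPM in siblings at 24 hpf. Its deficit at 24 hpf was not seen at 48 hpf, where the groups overlapped (1.42 ± 0.15, adjusted p = 3.33e-05). The fall of cyp1c1, a cytochrome P450, was lost in the same way (2.63 ± 0.34, adjusted p = 2.90e-04). For cdo1, which oxidizes cysteine, the fall was also no longer called (1.92 ± 0.20, adjusted p = 4.04e-05). Every cdo1 mutant library lay above every sibling library at 48 hpf, where the effect of 0.38 was not called (adjusted p = 0.174).

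Falls called at 48 hpf only were found among photoreceptor and pineal genes. Of 40 tested 4 had a smaller effect at 48 hpf (10%, beside 0.737% of all genes), all of them falls called at that stage only, and the others were not called. The median difference was -0.27, with 25 negative and 15 positive estimates. At 48 hpf alone 6 members were called lower in mutants and 1 higher. The summed level of the tested list was 104 to 141 CPM in mutants and 221 to 330.3 CPM in siblings at 48 hpf, and 35.5 to 36.3 CPM in mutants and 36.8 to 38.3 CPM in siblings at 24 hpf. This sum includes crx and otx5, given below, and weighs abundant members most. The transcription factor crx, of photoreceptor precursors, had 11.13, 13.1 and 9.39 CPM in mutants, against 36.0, 47.3 and 29.9 CPM in siblings at 48 hpf. It had 1.09, 0.904, 0.699 and 0.654 CPM in mutants, against 0.572, 0.473, 0.248 and 0.669 CPM in siblings at 24 hpf. Both genotypes were higher at 48 hpf, the siblings more so (-2.51 ± 0.36, adjusted p = 7.17e-04; 0.0618 with limma-voom). Its relative otx5 took the same form, with 26.9 CPM in mutants and 84.5 CPM in siblings at 48 hpf and 2.13 CPM in mutants and 1.94 CPM in siblings at 24 hpf (-1.79 ± 0.38, adjusted p = 0.0134), as did vsx1, of retinal bipolar cells and outside the list (-1.79 ± 0.25, adjusted p = 5.09e-04). For gnb3a, a transducin subunit of cones, the difference of -3.78 ± 0.85, adjusted p = 0.0205, was lost without mutant replicate 2 or 4 of 24 hpf, mutant replicate 1 or 3 of 48 hpf or sibling replicate 2 of 48 hpf (0.0515 to 0.0730), and limma-voom did not call it (0.261). The count of the list was 2 without mutant replicate 1 or 3 or sibling replicate 2 of 48 hpf. The photopigment gene rho, named after its value was seen, had an estimate of -4.36 that was not called (adjusted p = 0.339).

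Other tissue lists gave few calls. In the lens list the median difference was -0.30, with 36 negative and 10 positive estimates. Of its 46 genes edgeR and limma-voom each called 0 and DESeq2 called 2. With no adjustment, 4 had a smaller and 0 a greater effect at p under 0.05. Of 58 genes of neurons and glia 1 had a smaller effect (1.72%) and 2 a greater one (3.45%), beside 0.737% and 2.43% of all genes. The median of this list was -0.30, with 48 negative and 10 positive estimates. With no adjustment, 20 of its members had a smaller and 3 a greater effect at p under 0.05. At 48 hpf alone 9 members were called lower in mutants and 2 higher. In this list 8 were called smaller with the block, 10 by DESeq2, 9 without sibling replicate 3 of 48 hpf and 11 when the pair with few mitochondrial counts was left out. Over all genes tested these fits called 310, 504, 375 and 481 smaller, in the same order, and limma-voom 158. Greater effects over all genes numbered 873 with the block, 870 with DESeq2 and 579 with limma-voom. Of 71 muscle genes 1 had a smaller effect (1.41%) and 2 a greater one (2.82%), shares near those of all genes, with a median of -0.20. The greater ones were desma (0.79 ± 0.13, adjusted p = 0.00193) and tnnt2c (0.88 ± 0.18, adjusted p = 0.0131). Of the muscle estimates 50 were negative and 21 positive. With no adjustment, 15 muscle genes had a smaller and 4 a greater effect at p under 0.05. At 48 hpf alone 9 were called lower in mutants and 2 higher. In this list 9 were called smaller with the block and 8 by DESeq2. With each library left out in turn, 0 to 9 neuron and glia genes and 0 to 2 muscle genes were called smaller. The brain creatine kinase gene ckbb averaged 320.4 ± 18.9 CPM in mutants and 527 ± 32.7 CPM in siblings at 48 hpf (SD, n = 3) and 50.04 ± 0.951 CPM in mutants and 47.7 ± 2.96 CPM in siblings at 24 hpf (SD, n = 4), a fall called at 48 hpf only (-0.79 ± 0.11, adjusted p = 6.33e-04), and the thyroid hormone receptor gene thrb took the same form (-0.97 ± 0.15, adjusted p = 0.00124). In the hatching gland list 2 of 12 genes had a greater effect, ctslb (1.02 ± 0.16, adjusted p = 0.00146) and cd63 (0.75 ± 0.12, adjusted p = 0.00136). Of 56 glycolysis and hypoxia genes 5 had a greater effect (8.93%), a count that was 0 to 2 without 12 of the single libraries. Of 47 genes of epidermis and ionocytes 8 had a greater effect with the replicate block, against 2 without it (4.26%, beside 2.43% of all genes). Of 39 haem, iron and erythroid genes 3 had a greater effect with the block, against 1 without it (2.56%). Of 37 genes of retinoid metabolism 4 had a greater effect with the block, against 0 without it in edgeR, where 6 had one at an unadjusted p under 0.05, and DESeq2 called 3 and limma-voom 1. A smaller effect was called for 1 of the 37 without the block (2.7%, beside 0.737% of all genes), a rise of 24 hpf no longer called at 48 hpf. With the block 1 was smaller too, and DESeq2 called 3 smaller and limma-voom 0.

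**Figure D4:**
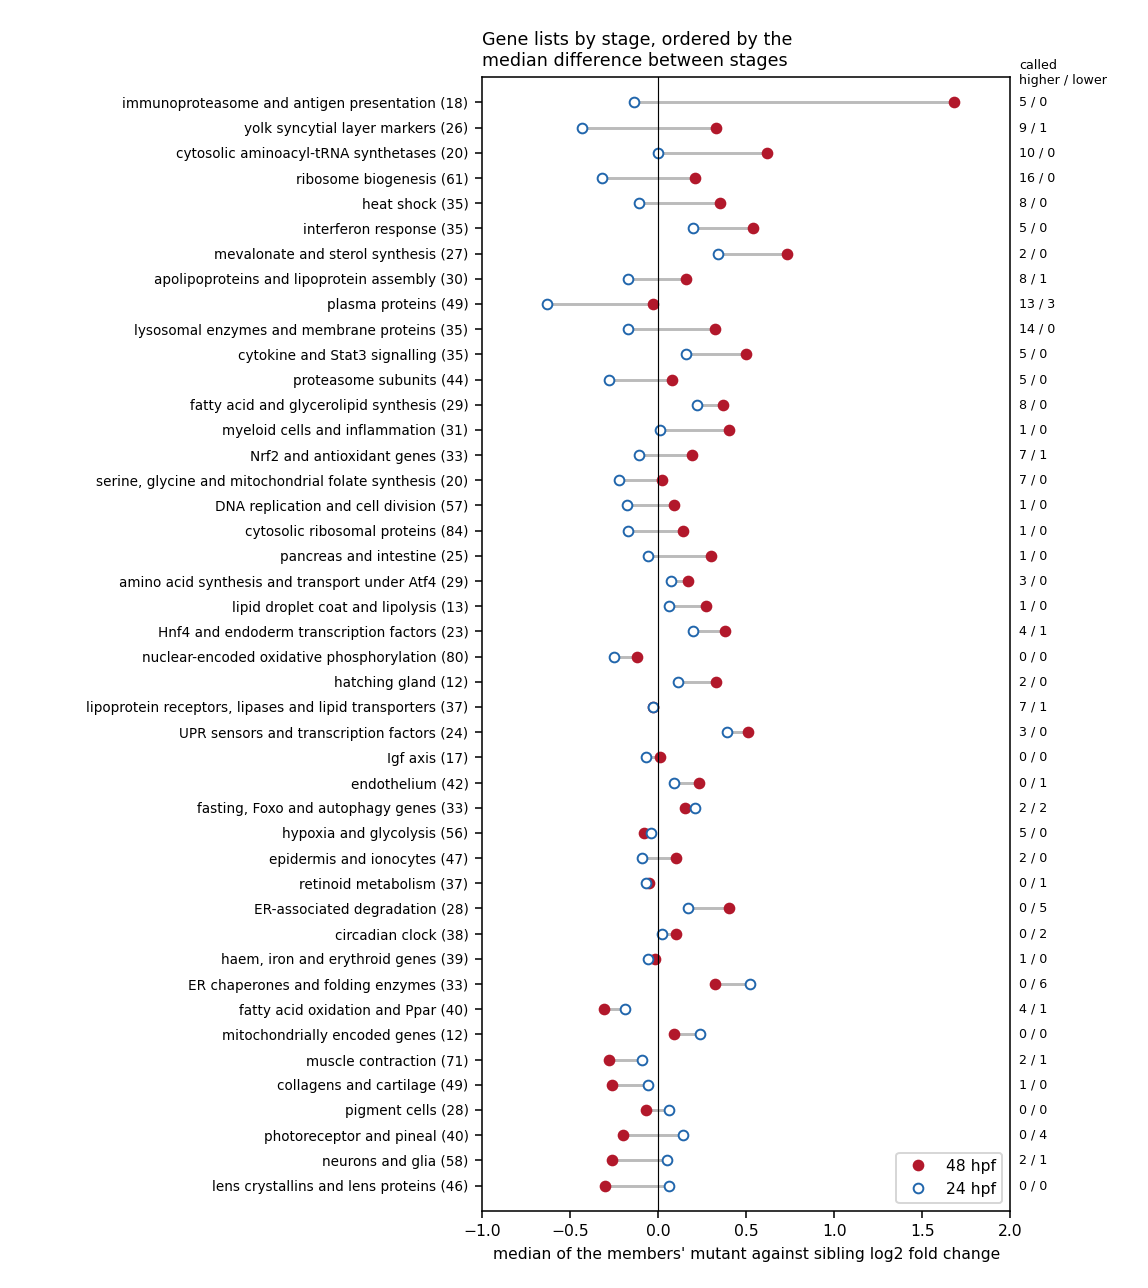
Median log2 fold change of mutants against siblings over the tested members of each gene list shown at 48 hpf (filled) and 24 hpf (open), ordered by the median difference between stages, with the number tested in brackets and the members called with a greater or smaller effect at 48 hpf at the right. Medians of the immunoproteasome, tRNA synthetase and ribosome biogenesis lists lie further right at 48 hpf, and those of the lens, neuron and photoreceptor lists further left.

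Many effects were called at both stages with no called difference between them. Of the 310 genes called at both stages 218 were of this kind. Sarcosine dehydrogenase, sardh, averaged 13.2 ± 1.78 CPM in mutants and 89.6 ± 8.91 CPM in siblings at 48 hpf (SD, n = 3) and 13.5 ± 5.67 CPM in mutants and 96.5 ± 3.04 CPM in siblings at 24 hpf (SD, n = 4), and its difference was 0.07 ± 0.31 with a 95% interval from -0.58 to 0.72. For igfbp1a, whose product binds insulin-like growth factors and is induced by fasting, the difference was 0.11 ± 0.24 (95% interval -0.40 to 0.62). The growth factor genes igf1 (-1.03 ± 0.67; -2.45 to 0.40) and igf2b (0.57 ± 0.18; 0.19 to 0.94) were called at neither stage nor in the difference. The typical SE of the difference was 0.30 over all genes, against 0.22 for the effect at 48 hpf and 0.20 at 24 hpf, so a missing call does not show that the effects were equal.

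The scale of measurement mattered for some genes. Of the 774 called genes 539 had a log2 effect farther from 0, in either direction, at 48 hpf than at 24 hpf, and 465 of these also had the larger difference in CPM there, whereas 74 did not. Of the 235 with a log2 effect nearer to 0 at 48 hpf, 28 had the larger difference in CPM. Median changes within genotype can be set beside these forms, although they share libraries with the difference and are no separate evidence. For the 320 effects that appeared as higher, the median log2 ratio of 48 to 24 hpf was 0.08 in mutants and -0.88 in siblings, and for the 92 that appeared as lower it was 1.00 in mutants and 1.71 in siblings. For the 133 vanished falls it was -0.17 in mutants and -1.11 in siblings.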

How the data were processed

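Raw counts per gene were deposited by the authors as whole numbers for 14 libraries; per the submitters' processing notes, Trim Galore 0.6.10, FastQC 0.12.1, STAR 2.7.10b and featureCounts 2.0.6 were used with build GRCz11. Which annotation was used, whether strand was counted and how reads matching several genes were handled is not given in the sources used; per the labels' protocols the kit was NEBNext Ultra, from 1 µg of total RNA, so reads of overlapping genes and of near-copies (apobb, c3a, ctss2, hsp70 genes) may be shared. No sequence is shown, because no table of sequences was used here.

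The 36109 genes (4130 without a count) were filtered with filterByExpr at a minimum count of 10, which left 24424 genes and 99.96% of counts. A model of 4 groups was fitted with edgeR 4.0.16 in R 4.3.3 (TMM factors, quasi-likelihood F test, 10 residual degrees of freedom, common dispersion 0.058). The tests were two-sided, Benjamini-Hochberg adjusted over all genes tested and called under 0.05; every adjusted p is from this test unless another tool is named. CPM are TMM-scaled and were computed from the deposited counts, with SD over libraries; errors of log2 values are SE. Reads were counted without molecular identifiers, so the errors given cover the spread between libraries. The script was tested on simulated data. Alternatives were DESeq2 1.42.0, limma-voom 3.58.1, RLE factors, library size only, 2 other filters, 2 other thresholds, libraries left out, and a replicate block.

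Same-numbered mutant and sibling libraries deviated together from their group means, with correlations of 0.348, 0.306 and 0.14 at 48 hpf and 0.407, 0.327, 0.378 and 0.145 at 24 hpf. In the replicate block alone the numbers were therefore taken as pairs, from the data and not from the labels. The main fit, which gave the SE and adjusted p-values quoted, had no term for pairs. Replicates of a group differed by more than counting noise, so that no library was counted as a copy.

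The 45 gene lists (1790 names, of which 42 were not found; 55 matched through another name) and the comparison were chosen with earlier results of these data known, and 25 lists share members with another. The genes chosen by rule were mttp and other fixed genes, and the 15 greatest and 15 smallest called differences with an average log2 CPM of at least 1 and no overlap of the groups. The 6 smallest p of each form under the same conditions and up to 4 called members of each list were added. Genes said to be named later are outside this rule, and not all chosen genes are named in the text. The smallest differences not named include mafga (-2.45), STX3 (-2.38), pou5f3 (-2.05), sagb (-2.04), syt5b (-1.99) and igfn1.3 (-1.98). Each of these lost its call in some fits with 1 library left out. Results of 1 gene, and of the 1 list among the 45 that depends on it, were left out of the text and figures.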

Additional observations from a re-analysis of the deposited data

Results flagged for a closer look

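The effect turned round between 48 and 24 hpf in 21 of the named genes. For each the difference was called, and so were effects of opposite direction at both stages. With log2 differences, these were slc25a38a (5.39), ctss2.1 (5.20), txn (2.46), ctsc (2.36), pck2 (1.89), smpd2a (1.83), c3a.1 (1.83), ucp2 (1.81), fga (1.74), scarb1 (1.71), acss2l (1.64), fgg (1.47), apom (1.41), fabp2 (1.41), iqgap2 (1.32), afp4 (1.17), fdps (1.13), atp6v1ab, of the proton pump of lysosomes (1.03), npm1a (0.74), slc25a20 (0.72) and rundc3ab (-0.95).

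Single libraries stood far from the other 3 of their group in 14 of 338 groups examined at 24 hpf, where chance alone flags about 1 in 20 groups. Among mutants these were apoa1b in replicate 2 (1903 CPM, others 2154 to 2176), hyou1 in replicate 1 (536.2, others 439.2 to 451.6), cbsb in replicate 1 (161, others 130.6 to 133.9), tap2a in replicate 1 (0.0642, others 0), stmn1b in replicate 2 (39.4, others 45.74 to 47.03), atp6v1ab in replicate 3 (101.4, others 86.5 to 87.6) and epas1a in replicate 2 (85.97, others 93.2 to 94.0). Among siblings these were hspa5 in replicate 3 (443, others 358.9 to 362.3), psph in replicate 2 (54.92, others 47.9 to 48.6), acss2l in replicate 4 (3.558, others 3.843 to 3.847), apoa4b.2 in replicate 2 (338.3, others 155 to 173.7), rps29 in replicate 2 (436.2, others 376.2 to 382), stmn1b in replicate 1 (40.48, others 48.7 to 50.1) and krt18b in replicate 2 (46.68, others 51.2 to 51.3).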

How the results depend on the processing

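No called result changed direction under an alternative that was run, while the uncalled differences of apoba, apoa1b, igfbp1a, hmgcra and sardh, all near 0, took both signs. Greater effects at 48 hpf numbered 251 at an adjusted p under 0.01, 124 for a change of at least 1.5-fold and 284 with replicates 1 to 3 of each group, and 342 to 1053 with 1 library left out. Smaller effects numbered 281 with the CPM filter, 504 with DESeq2, 51 at 0.01, 19 at 1.5-fold, 310 with the replicate block, 90 with replicates 1 to 3, 481 without both libraries of low mitochondrial share, and 88 to 375 with 1 left out. Rises called at 48 hpf only numbered 160 at 0.01, 67 at 1.5-fold and 180 with replicates 1 to 3 (216 to 436 with 1 left out). Falls called at 48 hpf only numbered 155 with the CPM filter, 245 with DESeq2, 19 at 0.01, 4 at 1.5-fold, 164 with the block, 44 with replicates 1 to 3 and 265 without the low mitochondrial libraries (36 to 149). Vanished rises numbered, in the same order, 64, 114, 18, 9, 73, 26 and 78 (29 to 94). Vanished falls numbered 227 with DESeq2, 43 at 0.01, 18 at 1.5-fold, 71 with library size only, 228 with the block and 54 with replicates 1 to 3 (55 to 340). Reversals to higher numbered 17 at 0.01, 3 at 1.5-fold, 79 with the block and 20 with replicates 1 to 3 (27 to 87). Reversals to lower numbered 3 with the CPM filter or RLE, 11 with DESeq2, 0 at 0.01, at 1.5-fold, with library size only and with replicates 1 to 3, 2 with limma-voom or no filter, 4 with the block and 9 without the low mitochondrial libraries (0 to 6). For the targeted gene mttp the difference was past the threshold with DESeq2 (1.04), no filter (1.04), the block (1.096) and without both low mitochondrial libraries (1.29), and ranged 0.79 to 1.31 with 1 library left out. Among the report's genes whose stage difference was recomputed, the replicate block changed the call of apobb.1, hnf4a, hspa5, tap2a, bcl6aa and mttp, as given beside them, and of no other. Over the genes chosen by rule, 3771 of 4366 recomputed values kept their call, 555 lost it and 11 gained it. The other 29 changed sign with no call in either fit. The cause of these shifts was not tested, except that stricter thresholds give fewer calls by construction. Leaving libraries out gave fewer calls in some fits and more in others. The share of genes called was 0.216% at an average log2 CPM under 0 and 7.97% at 6 or more, and depth itself was not varied.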
